A study of Schizosaccharomyces pombe with 8 samples.

Results

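The comparison described here is the response of wild-type fission yeast, Schizosaccharomyces pombe, to hydrogen peroxide, taken across metabolism, membrane transport, regulators, genes of unknown function and transcript abundance. It uses 4 of the 8 poly(A) RNA libraries of the study: 2 of strain 972 treated with 1 mM H2O2 for 30 min and 2 of untreated strain 972. The other 4 libraries, 2 treated and 2 untreated, come from a strain deleted for pgr1, which encodes glutathione reductase, and serve for the estimate of spread and for 1 comparison of responses. All cells grew in YE5S, a rich medium, at 30 °C. Whether both libraries of a group had a culture of their own is not stated, so a p-value here measures the spread between libraries, which may be technical.

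Of 5165 genes in the deposited table, 4997 reached 10 normalized counts in 2 or more of the 4 wild-type libraries and were tested; 168 did not and were not tested. Levels are DESeq2-normalized counts. Values in brackets after a gene are log2 fold changes of treated over untreated wild type ± SE, fitted by limma to log2(value + 1), n = 2 per group. A gene is called where the Benjamini-Hochberg adjusted p of limma was below 0.05 over all 4997 genes, and "rose" and "fell" are used of called genes only. The pseudocount makes the fold change of a gene with few reads too small.

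Hydrogen peroxide oxidises protein thiols and iron centres, and yeasts meet it with peroxidases, catalase and a supply of NADPH. In fission yeast the signal runs mainly through the kinase Sty1 with the factor Atf1, and through the redox-sensitive factor Pap1. The genes described below are those of metabolism, transport and regulation; which factor acts on them was not measured.

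The labels of the 4 wild-type libraries were checked first. The pgr1 transcript was present in all 4 libraries, with 7201 and 6792 normalized counts in treated and 4939 and 4805 in untreated wild type (0.52 ± 0.21, called, but not in 8 of the alternatives tried). The catalase gene ctt1 had 38141 and 35219.8 normalized counts in treated cells and 953 and 949 in untreated cells. Treated and untreated libraries did not overlap for 84.8% of all tested genes, and most genes named below were chosen among these, so nothing is read from the absence of overlap. Recovered reads were 12026222 and 13498907 in the treated and 12529259 and 12179424 in the untreated libraries. Normalized counts summed to 13905307 and 14222035 in treated and to 10969093 and 11103005 in untreated cells. No wild-type library had to be left out.

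Peroxide moved most of the transcriptome. Of the 4997 genes tested, 3630 (72.6%) were called, 1890 (37.8%) higher and 1740 (34.8%) lower in treated cells. At least 4-fold, 253 genes (5.06%) were higher and 106 (2.12%) lower. At least 8-fold, 121 genes (2.42%) were higher and 18 (0.36%) lower. These shares are the background for every count below. They depend on the scaling: the median of all tested genes was -0.00 with the authors' size factors, -0.10 after quantile normalization (1645 or 32.9% higher, 2048 or 41% lower) and -0.35 with library totals made equal (1182 or 23.7% higher, 2769 or 55.4% lower). The excess of 4-fold rises over 4-fold falls turned with library totals, to 181 higher and 218 lower. Of the genes called under both, 31 changed sign after quantile normalization and 17 with library totals. The data hold RNA relative to other RNA, so fewer molecules per cell cannot be told apart from more of other transcripts, nor fewer expressing cells from less RNA per cell.

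**Figure D1:**
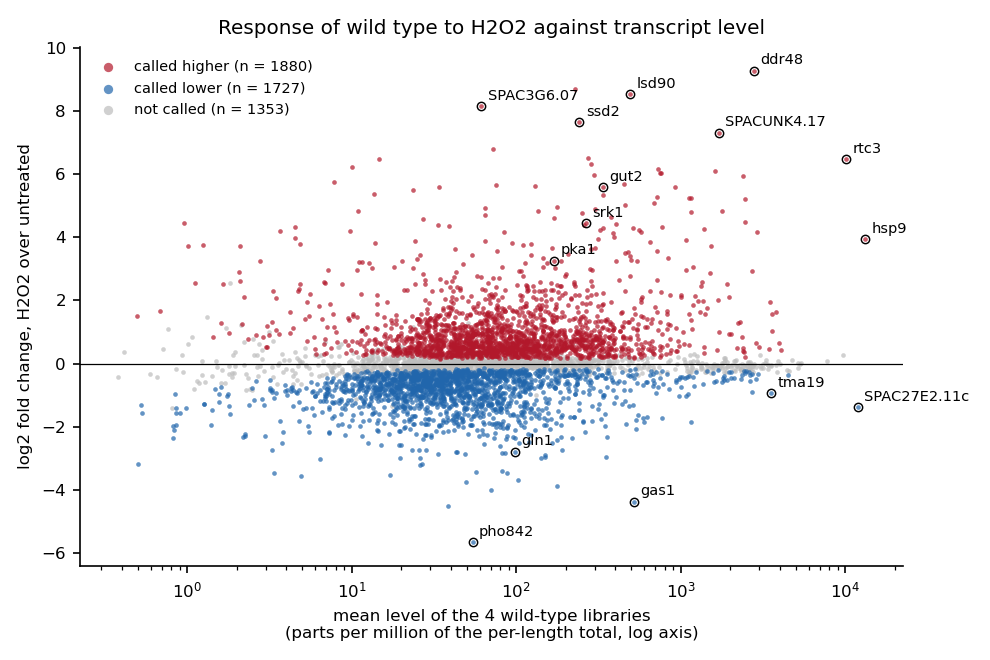
Log2 fold change of treated over untreated wild type against the mean level of the 4 wild-type libraries, in ppm of the per-length total on a log axis, for the tested protein-coding genes, 1 point per gene. Called genes lie on both sides at every level, and the largest rises, such as ddr48 at 9.28, reach further from 0 than the largest falls, such as pho842 at -5.67.

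To compare levels between genes, normalized counts were divided by coding length and given in ppm of the per-length total of a library, over 5097 protein-coding genes. On this scale the most abundant transcript of treated cells was hsp9, a heat shock protein gene, with 22306 and 26717 ppm in treated and 1884 and 2201 ppm in untreated cells. The next was rtc3, an SBDS family gene, with 19195 and 20890.000 ppm in treated and 383 and 214 ppm in untreated cells. Together with ddr48, gpx1, trx1, pmp20 and pmp3 they displaced ribosomal protein transcripts from the 10 highest places. The rank of hsp9 was 1 in treated and 108 in untreated cells, and that of ddr48 was 5 in treated and 4594 in untreated cells.

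The most abundant transcript of untreated cells was SPAC27E2.11c, annotated as a Schizosaccharomyces specific protein. It had 4677 and 6471 ppm in treated cells, where it ranked 6, and 17665 and 19180.1 ppm in untreated cells. Its log2 fold change was -1.39 ± 0.16 (limma, Benjamini-Hochberg adjusted p = 4.66e-05). No other transcript lost as much of the total. After it came tma19, the translationally controlled tumour protein gene, with 2062 and 2044 ppm in treated and 4779 and 5314 ppm in untreated cells. The eIF5A gene tif51 had 1551 and 1629 ppm in treated and 3729.7 and 3945 ppm in untreated cells. Both fell in the test, at -0.94 ± 0.11 for tma19 and -0.91 ± 0.08 for tif51. Among the ribosomal protein genes with a large loss of share, rpl29 fell (-0.37 ± 0.13), a call that was lost under 3 of the alternatives tried, while rpl22 (-0.15 ± 0.14), rpl31 (-0.19 ± 0.12), rpl26 (-0.27 ± 0.11) and rpl42 (-0.23 ± 0.12) were not called. The values of these ribosomal protein genes were all below 0, and their share of the total dropped. A share also drops where other transcripts gain, since shares add up to a fixed total. What lowered the share of these genes was not tested.

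**Figure D2:**
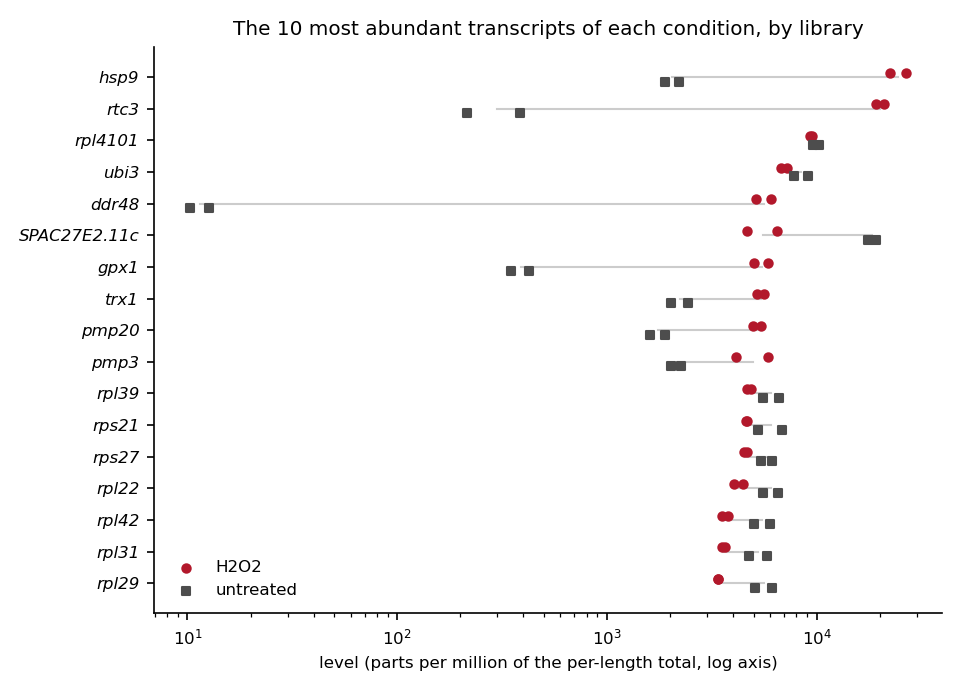
Level of the 10 most abundant transcripts of treated and of untreated wild type, in ppm of the per-length total on a log axis, with treated (round) above untreated (square) in each row and 1 point per library. The 7 transcripts from hsp9 to pmp3 that are not ribosomal or SPAC27E2.11c lie right of their untreated values, and ddr48 spans the widest range, with 5136 and 6079 ppm in treated and 10.3 and 12.7 ppm in untreated cells.

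Much of the gain went to few transcripts, while the loss was spread thin. In all, 1686 transcripts gained share and 3389 lost it, and 26.5% of the per-length total changed hands. Shares add up to a fixed total in each library, so large gains lower the shares of all other transcripts by construction. A loss of share is therefore not the same as a fall in the test. The 10 largest gains came to 7.72% of the total and the 10 largest losses to -3.06%. Per exon length, with untranslated parts, a scale chosen after seeing the data, the gains came to 5.44% and the losses to -2.90%, and rtc3 stood at 11274 ppm in treated cells on average, against 20043 ppm per coding length. Beside hsp9 and rtc3, the gains included SPBC11C11.06c, an uncharacterised gene (4685 and 4811 ppm in treated, 164 and 163 ppm in untreated cells), and smp4 (4386 and 4941 ppm in treated, 122 and 75.6 ppm in untreated cells). The glycerol-3-phosphate dehydrogenase gene gpd1 had 4241 and 5115 ppm in treated and 747 and 800.02 ppm in untreated cells. The dehydrogenase family gene SPACUNK4.17 had 3132 and 3643 ppm in treated and 24.1 and 30.4 ppm in untreated cells.

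The share held by the highest transcripts depended on the length used. Per coding length the 100 highest held 34.2% and 35.5% of the total in treated and 34.7% and 35.8% in untreated cells, and the 10 highest held 8.79% and 9.96% in treated and 7.19% and 8.25% in untreated cells. Per exon length the order turned for the 10 highest, with 6.71% and 7.55% in treated and 7.09% and 8.21% in untreated cells, and the groups overlapped. Of the 10 highest transcripts of treated cells 3 were also among the 10 highest of untreated cells (30% of each list), as were 66 of the highest 100 (66% of each) and 371 of the highest 500 (74.2% of each). Dividing by exon length also changed single levels: rtc3 then ranked 1 and hsp9 2 in treated cells, SPAC27E2.11c 5, rpl4101 39 and pmp3 110. The transcripts of rpl4101 and ubi3 share sequence with other genes or overlap an opposite gene, so their levels are uncertain.

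The response did not sit at 1 level of expression. Tested genes were put into 5 bins of about equal size by their level in untreated cells. Between 35.6% and 39.8% of the genes of a bin were called higher and between 29.4% and 38.1% lower, with the fewest lower in the most abundant bin. From the lowest bin to the highest, genes with at least 2-fold rises numbered 210, 122, 130, 102 and 114. Those with at least 2-fold falls numbered 125, 98, 121, 140 and 102. The untreated level both sets the bin and divides the fold change, which favours large rises in the lowest bin. Nothing is therefore read from the count of rises there.

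Strongly changed genes had few introns. Of the 250 protein-coding genes at least 4-fold higher, 203 (81.2%) had no intron in their coding region. Of the 105 at least 4-fold lower, 77 (73.3%) had none. Among all 4960 protein-coding genes tested, 2616 (52.7%) had none. Put the other way, 7.76% of genes without a coding intron, 2.79% of those with 1 and 1.38% of those with 2 or more were at least 4-fold higher. In the same order, the share called higher at any size differed less, at 39.1%, 34.4% and 38.4%. The share lower went with coding length: from the shortest (up to 606 bases) to the longest (1980 bases or more) of 5 length classes of about equal size it was 25.6%, 30.5%, 35.8%, 39.5% and 42.7%. The share higher was not ordered by length, at 36.6%, 41.6%, 42.8%, 38.5% and 30% over the same classes. These are descriptions of the reference gene models, and no test was made of them.

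Metabolic genes were read by pathway. Genes whose annotation names an oxidoreductase or dehydrogenase were called higher more often than genes at large. This class was matched by words in the annotation, so it also holds some other enzymes, such as the pyruvate dehydrogenase kinase gene pkp1. It also misses some that belong, such as the dehydrogenase family gene SPACUNK4.17. Of 195 tested, 133 were higher and 40 lower, with a median log2 fold change of 0.62. At least 4-fold, 33 were higher and 1 lower. After quantile normalization 110 were higher and 48 lower. Together these transcripts took 66569 and 69181 ppm in treated and 40425 and 39419 ppm in untreated cells. The succinate-semialdehyde dehydrogenase gene ssd2 had 11399.5 and 13137 normalized counts in treated and 44.6 and 81.1 in untreated cells. SPBC725.03, annotated as a pyridoxamine phosphate oxidase, had 10678 and 12837 normalized counts in treated and 229 and 221 in untreated cells (5.70 ± 0.09). SPAPB1A11.03, annotated as a cytochrome-type lactate dehydrogenase, had 237 and 602 normalized counts in treated cells and 3.50 and 4.56 in untreated cells (6.24 ± 0.35), but it shares sequence with another gene and is uncertain. Of the genes that went the other way, SPAC8E11.10, a sorbose reductase, had 251 and 221 normalized counts in treated and 3883 and 3058 in untreated cells (-3.86 ± 0.14). The squalene monooxygenase gene erg1, of sterol synthesis, fell too (-1.44 ± 0.07).

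**Figure D3:**
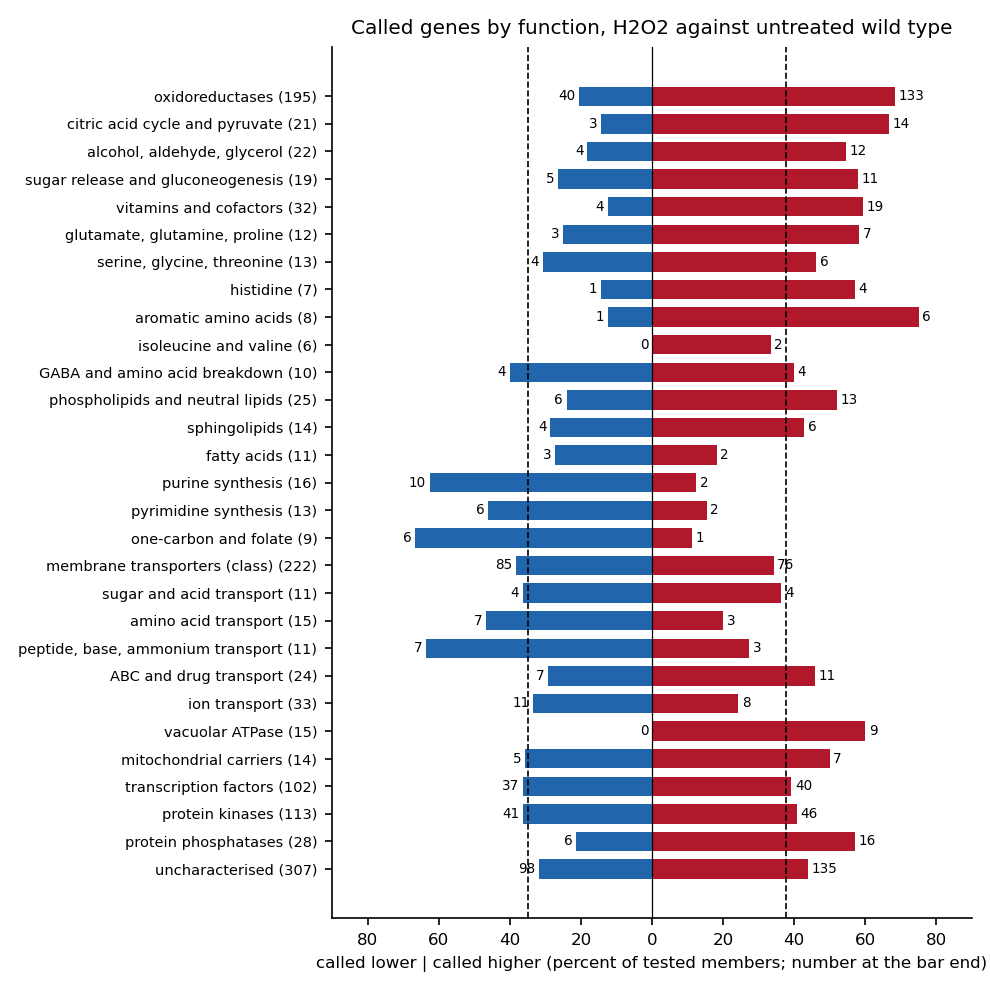
Share of the tested members of each function called higher (right, red) or lower (left, blue) in treated against untreated wild type, with the number called at the bar end and the number tested in brackets. Dashed lines mark the shares over all tested genes, 37.8% higher and 34.8% lower; oxidoreductases extend past the right line, and purine, one-carbon and peptide, base and ammonium transport genes past the left line.

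At the centre of carbon metabolism the citric acid cycle and its feeding steps rose in part. Of 21 genes 14 were higher and 3 lower, with a median of 0.59. After quantile normalization 10 were higher and 7 lower, with a median of 0.16. The malate dehydrogenase gene mdh1 had 13149 and 11367 normalized counts in treated and 2075 and 1821 in untreated cells (2.65 ± 0.13). The citrate synthase gene cit1, at the entry to the cycle, had 11730.1 and 11822 normalized counts in treated and 3681 and 3507 in untreated cells (1.71 ± 0.07). The pyruvate dehydrogenase component gene pdx1 (1.55 ± 0.07) and the pyruvate carboxylase gene pyr1 (1.10 ± 0.14) also rose. The succinate dehydrogenase subunit gene sdh2 (-0.65 ± 0.17) fell. The call of sdh3, which was lower (-0.44 ± 0.15), was lost without single libraries.

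The largest rises in alcohol and glycerol metabolism were of glycerol 3-phosphate genes, while a pair of genes on the way to ethanol fell. Of 22 genes of alcohol, aldehyde and glycerol metabolism 12 were higher and 4 lower, with a median of 0.65. The mitochondrial glycerol-3-phosphate dehydrogenase gene gut2 had 22088 and 21603 normalized counts in treated and 453 and 459 in untreated cells (5.58 ± 0.14; limma, Benjamini-Hochberg adjusted p = 4.88e-09). Its cytosolic counterpart gpd1, which starts glycerol synthesis, had 83256 and 102951 normalized counts in treated and 11333 and 12715 in untreated cells (2.95 ± 0.13). The glycerol dehydrogenase gene gld1 (2.20 ± 0.32) and the glyoxalase gene glo2 (2.18 ± 0.08) rose as well. The pyruvate decarboxylase gene pdc101, at the branch to ethanol, had 18857 and 16462 normalized counts in treated and 36809.5 and 34437 in untreated cells (-1.01 ± 0.13). The alcohol dehydrogenase gene adh1 (-0.54 ± 0.13), whose product makes ethanol, and the formaldehyde dehydrogenase gene fmd3 (-1.34 ± 0.19) fell too.

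Several genes for the use of sugars other than glucose rose strongly. Of 19 genes of sugar release and gluconeogenesis 11 were higher and 5 lower, with a median of 0.38 that came to 0.03 with library totals. The invertase gene inv1, whose product splits sucrose, had 2538 and 1427 normalized counts in treated and 45.5 and 31.9 in untreated cells (5.60 ± 0.27). The hexitol dehydrogenase gene tms1 had 2420.03 and 1972 normalized counts in treated and 151 and 142 in untreated cells (3.89 ± 0.11). The melibiase gene mel1 had 87.9 and 86.4 normalized counts in treated and 4.38 and 7.29 in untreated cells (3.72 ± 0.28). The treated libraries of inv1 differed from each other. The galactose gene gal10 (3.21 ± 0.10) is uncertain because another gene lies opposite or shares its sequence. The falls in the list were of glucan hydrolases and amylases: agn1, whose product cleaves the septum (-2.00 ± 0.14), agn2 (-0.75 ± 0.13), aah2 (-1.05 ± 0.11), aah3 (-0.78 ± 0.10) and aah1 (-0.64 ± 0.07).

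Amino acid pathways did not move as 1 block. In the glutamate, glutamine and proline list 7 of 12 genes were higher and 3 lower, with a median of 0.70. The glutamine synthetase gene gln1, which fixes ammonium onto glutamate, had 399 and 339 normalized counts in treated and 2477 and 2615 in untreated cells (-2.79 ± 0.09). The glutamate synthase gene glt1, its partner in that cycle, had 1228 and 696 normalized counts in treated and 3233 and 2151 in untreated cells (-1.51 ± 0.29). The NADPH-linked glutamate dehydrogenase gene gdh1, the other route to glutamate, had 11827 and 14484 normalized counts in treated and 5696 and 5694 in untreated cells (1.20 ± 0.09). The synthetase and synthase genes thus fell, and the dehydrogenase gene rose. The aspartate aminotransferase genes caa1 (1.95 ± 0.08) and maa1 (0.75 ± 0.08), the asparagine synthetase gene asn1 (1.40 ± 0.12), the NAD-linked gdh2 (0.68 ± 0.16, not called with library totals) and the proline synthesis genes pro1 (0.98 ± 0.08) and pro2 (0.72 ± 0.09) rose, and pro3 fell (-0.32 ± 0.08). The proline breakdown genes put1 (0.02 ± 0.08) and put2 (0.17 ± 0.07) were not called.

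Of 13 serine, glycine and threonine genes 6 were higher and 4 lower, and the median of 0.10 turned to -0.14 after quantile normalization. The first serine synthesis gene ser3 had 10569 and 12411 normalized counts in treated and 5118 and 3561 in untreated cells (1.42 ± 0.18). The next one, ser1 (1.32 ± 0.10), the aspartate kinase gene hom3 (1.34 ± 0.10) and hom2 (1.05 ± 0.12) rose. The last step, ser2 (-0.64 ± 0.08), the serine hydroxymethyltransferase gene shm1 (-0.72 ± 0.09) and the glycine cleavage genes gcv2 (-0.85 ± 0.10) and gcv3 (-0.42 ± 0.10) fell. Of 7 histidine genes 4 were higher and 1 lower, with his4 (1.62 ± 0.12, uncertain) and his1 (-0.35 ± 0.06) at the ends; his2 (0.84 ± 0.06) and his7 (0.78 ± 0.06) rose and his5 (-0.11 ± 0.10) was not called. Of 8 aromatic amino acid genes 6 were higher and 1 lower, but 1 and 1 after quantile normalization. Among them pha2 rose (1.21 ± 0.08) and aro2 fell (-0.39 ± 0.07). The calls of aro1 (0.63 ± 0.09), trp1 (0.57 ± 0.07) and trp2 (0.61 ± 0.07), all higher, were lost after quantile normalization. In the isoleucine and valine list 2 of 6 were called, ilv1 (0.32 ± 0.07) and ilv6 (0.20 ± 0.08), and both changed sign after quantile normalization and with library totals, so no direction is given for them. Of 10 genes of 4-aminobutyrate, arginine, alanine and urea use 4 were higher and 4 lower: ssd2, car1 (1.16 ± 0.10), alt1 (0.86 ± 0.08) and ssd1 (0.43 ± 0.07, not called with library totals) rose, and aru1 (-1.27 ± 0.10), uga1 (-1.23 ± 0.16, uncertain), car2 (-0.65 ± 0.08) and ure4 (-0.50 ± 0.13) fell. The 2 arginase genes thus went apart, with car1 at 1018 and 1249.5 normalized counts in treated and 529.7 and 482 in untreated cells, and aru1 at 2865 and 2346 in treated and 6428 and 6092 in untreated cells.

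Purine and one-carbon genes fell more often than the background of 34.8%, and pyrimidine genes lay nearer to it. Of 16 purine genes 10 were lower and 2 higher, with a median of -0.53. The IMP dehydrogenase gene gua1, the entry to guanine nucleotides, had 6021 and 6309.8 normalized counts in treated and 15026 and 16203 in untreated cells (-1.34 ± 0.08). The purine synthesis gene ade1 had 3118 and 3079 normalized counts in treated and 7341 and 7098 in untreated cells (-1.22 ± 0.06). The salvage gene apt1 fell as well (-1.27 ± 0.14), and ade7 (0.64 ± 0.09) and ade2 (0.51 ± 0.08, not called under either other scaling) rose. Of 13 pyrimidine genes 6 were lower and 2 higher, with a median of -0.52. The mitochondrial dihydroorotate dehydrogenase gene ura3 had 3508 and 2796 normalized counts in treated and 8039 and 7739 in untreated cells (-1.33 ± 0.10). The uridine salvage gene urk1 fell (-1.57 ± 0.10), as did urg3 (-1.27 ± 0.20) and ura5 (-0.57 ± 0.07), and the nucleoside diphosphate kinase gene ndk1 rose (0.78 ± 0.10).

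Of 9 one-carbon and folate genes, which share ade9 with the purine list, 6 were lower and 1 higher, with a median of -0.72. The trifunctional folate enzyme gene ade9 had 1214 and 1022 normalized counts in treated and 2964 and 3029 in untreated cells (-1.43 ± 0.09). The genes mtd1 (-1.36 ± 0.10), met9 (-1.24 ± 0.07), dfr1 (-0.74 ± 0.06), met26 (-0.72 ± 0.12) and fol2 (-0.38 ± 0.09) also fell. The methylenetetrahydrofolate reductase genes met9 and met11 went apart, since met11 rose (0.69 ± 0.09). The gene met11 was at 2367 and 2592 normalized counts in treated and 1591 and 1475 in untreated cells, and met9 at 1142 and 1229.5 in treated and 2879 and 2736 in untreated cells. Under both other scalings more purine, pyrimidine and one-carbon genes were lower, 14, 8 and 7 after quantile normalization, where 41% of all tested genes were lower.

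Of 25 phospholipid and neutral lipid genes 13 were higher and 6 lower, with a median of 0.30 that turned to -0.04 with library totals. The sterol ester synthesis gene are1 had 2719.5 and 2962 normalized counts in treated and 583 and 541 in untreated cells (2.34 ± 0.08). The triacylglycerol synthesis gene dga1 had 5926 and 6346 normalized counts in treated and 1658 and 1855 in untreated cells (1.81 ± 0.08). The second sterol acyltransferase gene are2 (1.65 ± 0.08) and the lipase gene ptl2 (1.47 ± 0.10), which breaks triacylglycerol down, rose too. The gene plh1, whose product also makes triacylglycerol, fell (-0.28 ± 0.08), a call that was lost without 1 untreated library. Of 11 fatty acid genes 2 were higher and 3 lower (1 and 8 after quantile normalization). The elongase gene elo2 fell (-1.81 ± 0.15), with 1337 and 1791 normalized counts in treated and 4758 and 6211 in untreated cells, and the elongase gene elo1 rose (0.70 ± 0.08). The fatty acid synthase genes fas1 (0.14 ± 0.13) and fas2 (-0.06 ± 0.13), the carboxylase gene cut6 (-0.02 ± 0.07) and the desaturase gene ole1 (-0.28 ± 0.14) were not called. In the sphingolipid list 6 of 14 genes were higher and 4 lower. The highest were gmh1 (1.20 ± 0.28), sur2 (0.86 ± 0.06) and lcb1 (0.70 ± 0.07), and the lowest imt2 (-1.15 ± 0.19) and lcb4 (-1.05 ± 0.07). The list was drawn up by hand, and gmh1, its only gene at least 2-fold higher, may not act on sphingolipids.

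Cofactor genes rose more often than the background. Of 32 genes for vitamins and their cofactors 19 were higher and 4 lower, with a median of 0.36 (0.01 with library totals). The pyridoxal reductase gene plr1 had 15812 and 15144 normalized counts in treated and 3402 and 3745 in untreated cells (2.12 ± 0.10). The vitamin B6 synthesis gene sno1 had 5831 and 7102 normalized counts in treated and 1403 and 1301 in untreated cells (2.25 ± 0.09). The riboflavin synthase gene rib5 (2.01 ± 0.08) and the nicotinamidase gene pnc1 (2.06 ± 0.09, uncertain) rose. The 4 falls were small, from nrk1 (-0.32 ± 0.09) to npt1 (-0.20 ± 0.07), and each lost its call under at least 1 alternative.

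Membrane transporters as a class were called about as often as genes at large. Of 222 tested, 76 (34.2%) were higher and 85 (38.3%) lower, with a median of -0.01. Strong falls were more frequent than at large: 18 of the 222 were at least 4-fold lower, against 2.12% of all tested genes. Another 12 were at least 4-fold higher, against 5.06% of all tested genes. Within the class most importers of peptides and nitrogen compounds fell. Of 11 peptide, nucleobase and ammonium transport genes 7 were lower and 3 higher, with a median of -1.03. The peptide transporter gene ptr2 had 118 and 178 normalized counts in treated and 1220.4 and 1118 in untreated cells (-3.00 ± 0.17). The glutathione transporter gene pgt1 had 424 and 560.5 normalized counts in treated and 1959 and 1917 in untreated cells (-1.99 ± 0.12). The nicotinic acid transporter gene tna1 (-3.56 ± 0.23), the oligopeptide transporter gene isp4 (-1.85 ± 0.46), dal51 (-1.03 ± 0.08) and the uracil transporter gene fur4 (-0.76 ± 0.08) fell.

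The 3 ammonium transporter genes did not move together. The high-affinity gene amt1 had 154 and 239 normalized counts in treated and 682 and 682 in untreated cells (-1.82 ± 0.18). By contrast amt2 had 3308 and 3553 normalized counts in treated and 2082 and 1987 in untreated cells (0.75 ± 0.08), and amt3 had 96.0 and 137 in treated and 44.6 and 45.6 in untreated cells (1.33 ± 0.22). In untreated cells amt2 was already the highest of them by normalized count, with amt3 the lowest; per length the order was the same, at 103 and 94.1 ppm for amt2, 34.9 and 33.3 ppm for amt1 and 2.19 and 2.14 ppm for amt3. Of 15 amino acid transport genes 7 were lower and 3 higher, with isp5 (-2.73 ± 0.22), SPAC1039.01 (-2.22 ± 0.10) and put4 (-1.37 ± 0.19) among the falls. The arginine and lysine transporter gene cat1 rose, with 5341 and 5947 normalized counts in treated and 1826 and 1686 in untreated cells (1.68 ± 0.08). SPCC584.13, annotated as a 4-aminobutyrate and polyamine transporter, had 54.3 and 66.4 normalized counts in treated and 635 and 779 in untreated cells (-3.53 ± 0.14).

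Among sugar and acid transporters 4 of 11 were higher and 4 lower. The sucrose and maltose symporter gene sut1 had 3813 and 4262 normalized counts in treated and 549.8 and 418 in untreated cells (3.07 ± 0.12), so transporter and invertase rose together. The hexose transporter gene ght2 had 11891 and 14438 normalized counts in treated and 2548 and 3151 in untreated cells (2.21 ± 0.13). The malate symporter gene mae1 fell (-0.83 ± 0.11). Most other hexose transporter genes share sequence with each other, and their values (ght8 at -0.82 ± 0.15, ght5 at -1.48 ± 0.18) are uncertain. The largest rise of any transporter was that of SPCC794.04c, known by its annotation only as a transporter, with 3997 and 4312 normalized counts in treated and 84.9 and 77.5 in untreated cells (5.66 ± 0.29). The largest fall was that of the phosphate transporter gene pho842, with 38.2 and 54.8 normalized counts in treated and 1935 and 2912 in untreated cells (-5.67 ± 0.22). SPBC887.17 also fell (-3.45 ± 0.13).

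Ion transport genes stayed near or below the background, with 8 of 33 higher and 11 lower. The vacuolar calcium pump gene pmc1 had 3663 and 3752 normalized counts in treated and 767 and 695 in untreated cells (2.34 ± 0.08). Outside this list but in the transporter class, the mechanosensitive channel gene msy1 rose (2.84 ± 0.09). It had 2334 and 2458 normalized counts in treated and 327 and 340.03 in untreated cells. The copper pump gene ccc2 (1.59 ± 0.08) and the vacuolar copper transporter gene ctr6 (1.05 ± 0.15) rose, while the plasma membrane copper transporter genes ctr4 (-2.43 ± 0.20) and ctr5 (-0.99 ± 0.12), the iron transporter gene pcl1 (-3.00 ± 0.14) and the zinc transporter gene zrt1 (-1.11 ± 0.12) fell. Of 24 ABC and drug transport genes 11 were higher and 7 lower. The mitochondrial ABC transporter gene atm1 (1.80 ± 0.11), the phytochelatin transporter gene hmt1 (1.45 ± 0.09), abc3 (1.50 ± 0.12) and the spermine family gene caf5 (1.47 ± 0.11) rose, and the related genes mfs3 (-2.02 ± 0.14) and SPBC36.01c (-2.59 ± 0.20) fell. Of 15 vacuolar ATPase genes 9 were higher and none lower, all by less than 2-fold, up to vma4 (0.63 ± 0.09). After quantile normalization 4 were higher and 4 lower, and vma4 was not called. Of 14 mitochondrial carriers 7 were higher and 5 lower, with oac1 (1.44 ± 0.15), odc1 (1.33 ± 0.12) and the pyruvate carrier gene mpc1 (1.30 ± 0.08) among those higher and flx1 (-1.96 ± 0.20, uncertain) and ymc1 (-1.66 ± 0.12) among those lower.

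Transcription factor genes were called about as often as genes at large. Of 102 tested 40 were higher and 37 lower, with a median of 0.04, and 6 were at least 4-fold higher and 2 at least 4-fold lower. The zinc finger factor gene rsv2 had 5229.7 and 6142 normalized counts in treated and 364 and 449 in untreated cells (3.81 ± 0.11; limma, Benjamini-Hochberg adjusted p = 8.91e-09). The gene pcr1, which encodes the dimer partner of Atf1, had 6098 and 6616 normalized counts in treated and 692 and 635 in untreated cells (3.26 ± 0.08). Of the related family members, atf1 had 5644 and 5777 normalized counts in treated and 1361 and 1303 in untreated cells (2.10 ± 0.07), and atf21 had 83.2 and 47.4 in treated and 5.25 and 10.9 in untreated cells (2.89 ± 0.39). SPCC320.03 (2.19 ± 0.06) and SPBC1348.12 (2.17 ± 0.19), named only as transcription factors, rose as well.

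Among the factors that fell was ste11, the master factor of sexual development, with 19.7 and 34.8 normalized counts in treated and 223 and 217 in untreated cells (-3.02 ± 0.26; limma, Benjamini-Hochberg adjusted p = 5.91e-06). The gene tos4 (-1.52 ± 0.08) and the iron-sensing repressor gene fep1 (-1.34 ± 0.14) fell less. Further factors, chosen after their values were seen, were the heat shock factor gene hsf1 (1.57 ± 0.06), the iron-responsive repressor gene php4 (1.76 ± 0.11), the sterol regulator gene sre1 (1.38 ± 0.06) and the S-phase factor genes res2 (1.57 ± 0.10) and cdc10 (1.04 ± 0.11), all higher, and the forkhead pair sep1 (1.09 ± 0.09), higher, and fkh2 (-0.88 ± 0.09), lower.

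**Figure D4:**
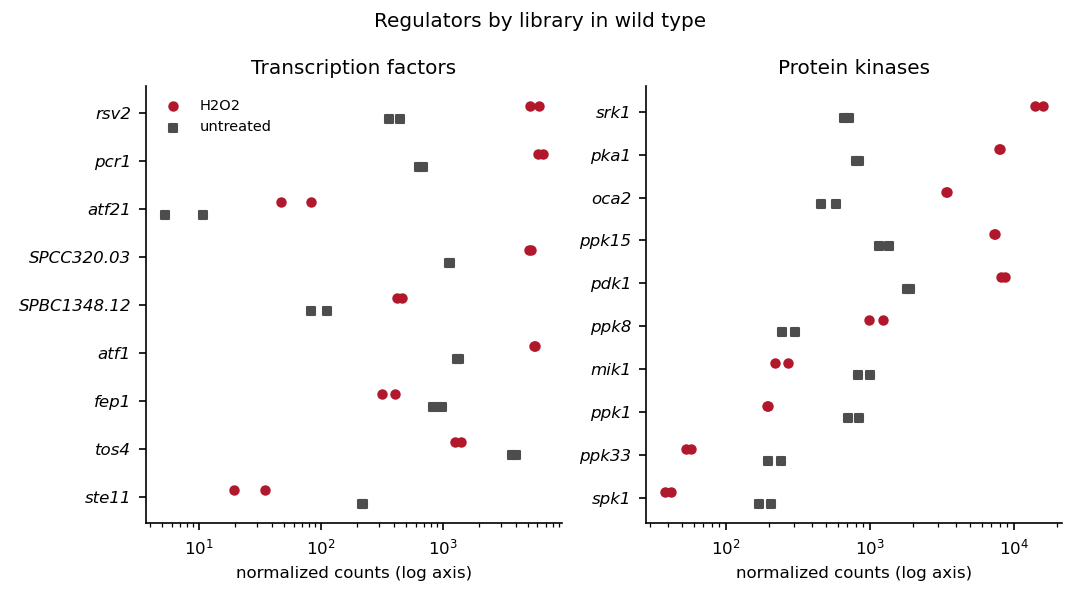
Normalized counts of transcription factor genes (left) and protein kinase genes (right) in the wild-type libraries, on log axes, with treated (round) above untreated (square) in each row and 1 point per library. The genes were chosen among those whose treated and untreated points do not overlap, as in 84.8% of all tested genes; ste11 lies at 19.7 and 34.8 in treated and 223 and 217 in untreated cells, and srk1 at 14074 and 16039.5 in treated and 666 and 718 in untreated cells.

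Kinase genes were also near the background, with 46 of 113 higher and 41 lower and a median of 0.06. At least 4-fold, 6 were higher and 1 lower, or 4 and 7 with library totals. The gene srk1, whose product is activated by Sty1, had 14074 and 16039.5 normalized counts in treated and 666 and 718 in untreated cells (4.44 ± 0.08). The catalytic subunit gene of the cAMP-dependent kinase, pka1, had 7868 and 8033 normalized counts in treated and 842 and 810.4 in untreated cells (3.27 ± 0.06). Next came oca2 (2.73 ± 0.17), ppk15 (2.55 ± 0.09), pdk1 (2.19 ± 0.07) and ppk8 (2.02 ± 0.13). The pheromone pathway MAP kinase gene spk1 fell (-2.21 ± 0.16, uncertain), as did ppk33 (-1.97 ± 0.19) and ppk1 (-1.97 ± 0.14). The Cdc2 inhibitor kinase gene mik1 had 271 and 220.2 normalized counts in treated and 834 and 1014 in untreated cells (-1.91 ± 0.13).

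Several kinases of mitosis, chosen after their values were seen, were lower: the polo kinase gene plo1 (-1.38 ± 0.10), the Aurora kinase gene ark1 (-1.65 ± 0.33), the NIMA-like gene fin1 (-1.36 ± 0.08) and the spindle checkpoint gene bub1 (-0.98 ± 0.08). The replication initiation kinase gene hsk1 (-1.75 ± 0.11) was lower and the replication checkpoint kinase gene cds1 (1.07 ± 0.07) higher. Among phosphatases 16 of 28 were higher and 6 lower, with a median of 0.25 (11 and 11 after quantile normalization). The tyrosine phosphatase gene pyp2, whose product acts on Sty1, had 9601 and 9085 normalized counts in treated and 199 and 179 in untreated cells (5.62 ± 0.27). The PP2C gene ptc1 had 5038 and 5678 normalized counts in treated and 1002 and 964 in untreated cells (2.44 ± 0.08). The genes pyp3 (1.61 ± 0.06) and pzh1 (1.46 ± 0.07) rose, and ibp1 (-1.07 ± 0.18) and the mitotic inducer gene cdc25 (-0.62 ± 0.10) fell.

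Of 367 genes annotated as uncharacterised, 307 were tested, 135 were higher and 98 lower, with a median of 0.17 (-0.18 with library totals). At least 4-fold, 37 were higher and 7 lower, or 30 and 14 with library totals. Over all 4997 tested genes 253 (5.06%) were at least 4-fold higher and 106 (2.12%) lower, or 181 and 218 with library totals. The share of such falls was thus near that of all tested genes, and the share of such rises above it. Together uncharacterised transcripts took 44535 and 49199 ppm in treated and 40665 and 42717 ppm in untreated cells. This sum includes SPAC27E2.11c, the most abundant transcript of untreated cells. Its loss of share, given above, offsets part of the gain of the other members. The most abundant among the 6 largest rises was SPAC637.03, with 17560.000 and 22265 normalized counts in treated and 242 and 309.95 in untreated cells (6.17 ± 0.16). SPAC3G6.07 had 774 and 814 normalized counts in treated and 1.75 and 1.82 in untreated cells (8.16 ± 0.19), its untreated level resting on 2 reads in each library. The ratio of its summed normalized counts was 444, with an exact 95% interval of 173 to 1633 that covers counting error only. SPAC15E1.02c had 3662 and 5362 normalized counts in treated and 73.5 and 66.5 in untreated cells (5.96 ± 0.19). SPBC30B4.09 rose alike (5.58 ± 0.13), and SPBPB21E7.11 had 192 and 263 normalized counts in treated and 4.38 and 4.56 in untreated cells (5.37 ± 0.24). SPBC3E7.17 had 111 and 71.6 normalized counts in treated cells and 0 in both untreated libraries, which is at least 34.1-fold higher against a limit of 3 reads per library.

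Among the uncharacterised genes that fell, SPBPB7E8.01 had 356 and 335 normalized counts in treated and 3886 and 5045 in untreated cells (-3.68 ± 0.11). SPAC1B2.06 had 22.0 and 13.7 normalized counts in treated and 151 and 185 in untreated cells (-3.20 ± 0.47). SPBC2A9.14 (-2.59 ± 0.31), SPAC11D3.19 (-2.25 ± 0.31) and SPBC27.05 (-2.13 ± 0.25) fell at lower levels, none above 147 normalized counts in untreated cells on average. SPAC23H4.05c, the remaining one, was called lower with 0 and 4.21 normalized counts in treated and 30.6 and 19.1 in untreated cells, too few for a fold.

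Markers of other cell states were checked, since a culture could hold mating, meiotic or starved cells. Of 20 markers 16 passed the filter, and 4 were higher and 9 lower. The summed level of the 20 was 310.3 and 345 ppm in treated and 290.3 and 389.8 ppm in untreated cells. The starvation protease gene isp6 (2.34 ± 0.10), the meiotic cohesin gene rec8 (2.07 ± 0.37), fus1 (1.58 ± 0.23) and the meiotic factor gene mei4 (0.99 ± 0.20) rose. The meiosis regulator gene mei2 (-2.33 ± 0.19), the pheromone gene mfm2 (-2.84 ± 0.28), ste11, isp4 and isp5 fell, and the spore and meiosis genes spo4 and mei3, with the pheromone genes mfm1 and mfm3, were under the filter. Of the 20 only mfm1 was at 0 in any wild-type library, 1 treated one. The part of such cells in the results was not tested.

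The response of wild type differed from that of the pgr1 mutant for 1380 of 4997 genes (27.6%), 773 (15.5%) with a larger value in wild type and 607 (12.1%) with a smaller one. These calls were fewer without a single treated mutant library: 909 without its replicate 1 and 781 without its replicate 2. Among genes of the lists above, SPAC3G6.07 had the largest positive difference, with 8.16 ± 0.19 in wild type and 3.09 ± 0.19 in the mutant (difference 5.06 ± 0.28). SPAC637.03 was at 6.17 ± 0.16 in wild type and 2.21 ± 0.16 in the mutant (difference 3.96 ± 0.23). SPBPB21E7.11 was at 5.37 ± 0.24 in wild type and 1.72 ± 0.24 in the mutant (difference 3.65 ± 0.33), and SPAPB1A11.03, uncertain, at 6.24 ± 0.35 in wild type and 1.21 ± 0.35 in the mutant. A difference of responses can come from the untreated or the treated levels of either strain. Levels without peroxide are given for 2 of the uncharacterised genes, and their difference was not tested. SPAC3G6.07 had 70.1 and 101 normalized counts in untreated mutant cells and 1.75 and 1.82 in untreated wild type, and SPAC637.03 had 3711 and 4829 in untreated mutant cells and 242 and 309.95 in untreated wild type. After peroxide SPAC637.03 had 17560.000 and 22265 normalized counts in wild type and 19225 and 19842 in the mutant. The ferric reductase gene frp1 was called in opposite directions, at 2.31 ± 0.36 in wild type and -1.86 ± 0.36 in the mutant (difference 4.17 ± 0.51). Its wild-type libraries stood apart from each other, with 4335 and 9018 normalized counts in treated and 890.4 and 1779 in untreated cells, replicate 2 being the higher in both groups.

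On the other side the riboflavin pathway gene rib4 was at 1.31 ± 0.09 in wild type and 3.38 ± 0.09 in the mutant (difference -2.07 ± 0.12). The dihydroxyacetone kinase gene dak2 was at -0.46 ± 0.14 in wild type and 1.51 ± 0.14 in the mutant (difference -1.97 ± 0.19). SPCC4B3.06c, a flavin reductase gene, was at -0.44 ± 0.09 in wild type and 2.05 ± 0.09 in the mutant, and the dehydrogenase gene SPCC1739.08c at 2.10 ± 0.34 in wild type and 4.94 ± 0.34 in the mutant. The Benjamini-Hochberg adjusted p of the difference from limma was 9.81e-06 for rib4, 0.000192 for dak2 and 0.000606 for frp1. The wild-type call of dak2 itself was lost under 3 alternatives. SPCC576.19c (difference -2.99 ± 0.38) and SPAC7D4.08 (difference -2.22 ± 0.38), both uncharacterised, also had smaller values in wild type. Of the regulators, srk1 was at 4.44 ± 0.08 in wild type and 2.65 ± 0.08 in the mutant (difference 1.79 ± 0.11, limma, Benjamini-Hochberg adjusted p = 1.15e-05), and rsv2 at 3.81 ± 0.11 in wild type and 2.52 ± 0.11 in the mutant (difference 1.29 ± 0.15, limma, Benjamini-Hochberg adjusted p = 0.000537).

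**Figure D5:**
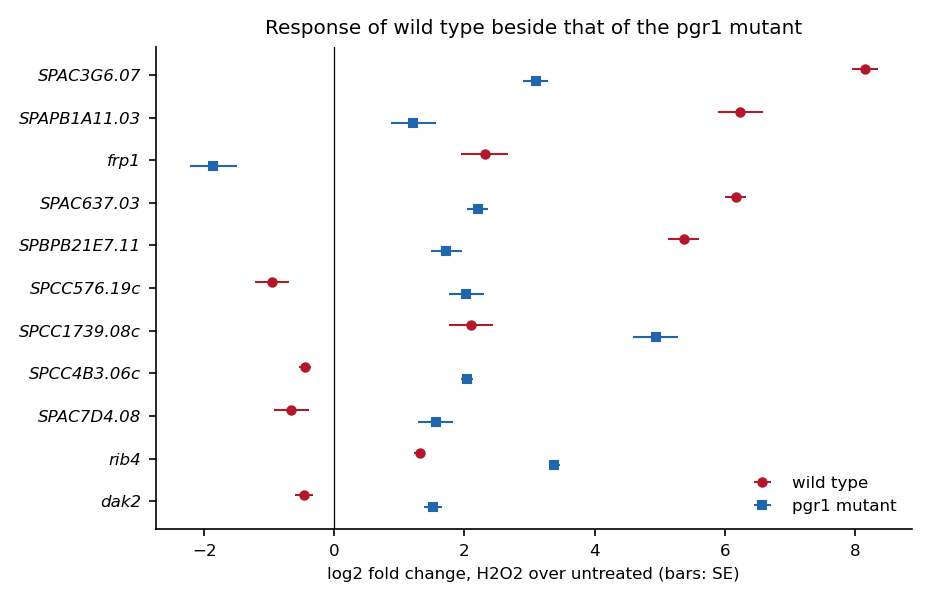
Log2 fold change of treated over untreated cells in wild type (round) above that in the pgr1 mutant (square), with SE bars from limma and 2 libraries per group, for listed genes with the largest differences of response. The 5 upper genes lie further right in wild type, such as SPAC3G6.07 at 8.16 in wild type and 3.09 in the mutant, and the 6 lower genes further left, such as rib4 at 1.31 in wild type and 3.38 in the mutant.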

How the data were processed

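Poly(A) RNA of 8 libraries was extracted with hot phenol and made into stranded libraries with a TruSeq kit, per the labels' protocols. The submitters' processing notes name FastQC, Trimmomatic, Salmon and DESeq2, and the build ASM294v2. The authors deposited 1 table of DESeq2-normalized counts, that is, a signal of counts divided by size factors. It held 5165 genes and 1 line naming no gene, which was left out. Dividing each library by its lowest step gave whole reads, within 0.05 reads, for 99.98% to 100% of the values, and 12026222 to 14125543 reads a library. These reads served for the count tests and for the check of replicates against counting noise. They also gave the interval and the read limit printed for genes with few reads.

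The test was limma 3.58.1 (R 4.3.3; trended prior variance) on log2(value + 1), with 1 mean for each of the 4 groups, all 8 libraries sharing the spread (4 residual degrees of freedom), two-sided, with Benjamini-Hochberg adjustment over the 4997 genes. The difference between the responses of the strains came from the same fit. The deposited values were also tested with pseudocounts of 0.5 and 5, without the filter, after quantile normalization, with equal library totals, in wild type alone, with the replicate number as a block and without each library, and the recovered reads with edgeR 4.0.16 (1832 higher, 1815 lower) and DESeq2 1.42.0 (1812 higher, 1653 lower). Replicates of a group differed by more than counting noise.

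Names, annotations and lengths were taken from RefSeq ASM294v3, where 5129 identifiers matched and 36 did not. Because the authors' build differs, no coordinates or sequences are given. A gene is marked uncertain where over 50% of its exon bases lie opposite another gene's exons (575 genes) or where it shares at least 5% of its 31-base words with another gene (213 genes), since Salmon could split such reads. The comparison, the 31 gene lists and classes and the tests were chosen with earlier results of these data known. The oxidoreductase, transporter and uncharacterised classes were matched by words in the annotation, which can take in other genes and miss some that belong. Named genes are called, do not overlap between groups, average at least 20 normalized counts in 1 of them, and are the up to 4 highest and 4 lowest of a list, with all members of lists of up to 12 genes, the 6 extreme uncharacterised genes each way, regulators past 4-fold, the 10 extreme transcripts in level, gain and loss, and the 6 extreme differences between strains. The gene aah1 was added after its values were seen, and some genes that the rule names are not reported here.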

Additional observations from a re-analysis of the deposited data

Results flagged for a closer look

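The response to peroxide differed between wild type and the pgr1 mutant, by the test of the difference itself, for 1380 genes. The values that follow are differences in log2 fold change, wild type minus mutant. Larger values in wild type were found for SPAC3G6.07 (5.06), SPAPB1A11.03 (5.03, uncertain because it shares sequence), frp1 (4.17), SPAC637.03 (3.96) and SPBPB21E7.11 (3.65). Smaller values in wild type were found for SPCC576.19c (-2.99), SPCC1739.08c (-2.84), SPCC4B3.06c (-2.49), SPAC7D4.08 (-2.22), rib4 (-2.07) and dak2 (-1.97). SPCC1739.08c had 49.7 and 43.2 normalized counts in treated and 7.88 and 12.8 in untreated wild type, and 368 and 299 in treated and 7.19 and 13.4 in untreated mutant cells.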

How the results depend on the processing

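Direction calls depended on the scaling more than on the test. With library totals made equal, 1182 genes were higher and 2769 lower, in place of 1890 and 1740. The other alternatives for the wild-type response kept both counts within 1.5 times; without 1 library, 1763 to 1877 genes were higher, 1581 to 1711 lower and 3375 to 3588 called in all. With the replicate number as a block 1938 were higher and 1830 lower, and for the difference between strains 1567 genes were called in place of 1380. Deviations of same-numbered libraries correlated at 0.40 in wild type and 0.21 in the mutant, over 4997 genes and 2 pairs in each strain, too few pairs to show that the numbers pair the libraries, which are taken to share only a number. Without 1 library, the difference between strains was called for 781 to 1401 genes, 464 to 798 of them above 0 and 317 to 603 below 0. Of the genes named, ilv1 turned to -0.031 with library totals and -0.16 after quantile normalization, and ilv6 to -0.15 and -0.20. Equal library totals scale the treated libraries down against the untreated ones by construction; for quantile normalization the cause was not tested. Over all named genes and alternatives, 4121 values kept their direction and their side of the threshold, 48 lost the call, 39 gained it and 4 changed sign. The 100 highest transcripts held 34.9% of the total in treated and 35.3% in untreated cells per coding length, 28.3% in treated and 25.4% in untreated cells when counts were not divided by length, and 34.0% in treated and 37.0% in untreated cells per exon length, a setting chosen after seeing the data. Whether treated cells were above or below untreated cells thus turned with the length used. Depth limits genes with few reads, such as SPAC3G6.07 and SPBC3E7.17 in untreated cells.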

Other observations

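Genes outside the lists, chosen after their values were seen, added further functions. The anaphase activator gene slp1 had 182 and 201 normalized counts in treated and 1995 and 2214 in untreated wild type (-3.45 ± 0.13). The haem synthesis gene hem3 had 237 and 157 normalized counts in treated and 2125 and 1991 in untreated cells (-3.41 ± 0.18). The contractile ring gene pxl1 fell as well (-3.00 ± 0.14). On the other side, ecl1, annotated as an extender of chronological lifespan, had 9830.4 and 16644 normalized counts in treated and 214 and 159 in untreated cells (6.11 ± 0.23). SPAC4H3.03c, annotated as a glucan 1,4-alpha-glucosidase, had 4372 and 5137 normalized counts in treated and 42.9 and 40.1 in untreated cells (6.80 ± 0.12). SPAC513.02, of the phosphoglycerate mutase family, rose alike (6.33 ± 0.07).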
